A study of Mus musculus with 10 samples.

Results

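Fibroblast growth factors (FGFs) are secreted or extracellular proteins, and their receptors (FGFRs) are tyrosine kinases of the cell surface. The 5 ligand genes *Fgf1*, *Fgf7*, *Fgf9*, *Fgf10* and *Fgf18* and the 4 receptor genes *Fgfr1*, *Fgfr2*, *Fgfr3* and *Fgfr4* were followed in single cells of the embryonic mouse pancreas. These 9 genes were chosen by symbol from the 27716 genes that every count table shares. All 9 had UMIs (unique molecular identifiers, each standing for 1 captured mRNA molecule), from 229 for *Fgf7* to 9117 for *Fgfr1* over all classes and libraries. The question asked was which cell classes carry the ligand transcripts, which carry the receptor transcripts, and how each changes with stage.

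A ligand binds its receptor together with heparan sulfate on the cell surface, and the kinase then signals through an adaptor to the MAP kinase cascade, which switches on target genes such as the *Etv* transcription factors and feedback inhibitors of the *Spry* and *Dusp* families. In the developing pancreas, Fgf10 made by the mesenchyme is known to keep epithelial progenitors dividing through the epithelial splice form of Fgfr2. Fgf7 binds the same splice form, Fgf9 and Fgf18 bind mainly the splice forms found in mesenchyme, and Fgf1 can bind all the receptors. The reads used here come from the 3' end of each mRNA, so the splice forms of *Fgfr1*, *Fgfr2* and *Fgfr3* cannot be told apart.

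Each library was made from pooled pancreata. Of the 8 independent libraries, 4 (version 1 chemistry: an E12.5, an E17.5 and 2 E14.5 batches) held all live cells of Swiss Webster embryos. A further 3 Swiss Webster libraries (version 2 chemistry, 1 library per stage, with the E17.5 suspension run in 2 wells that were summed) were depleted of CD140a-positive cells, that is, of cells with the mesenchymal surface receptor Pdgfra. The last library (version 2, E14.5, Fev-Cre;ROSA26mTmG) held cells sorted by reporter from C57BL/6J-background embryos in which Cre is driven by *Fev*, a gene of endocrine progenitors, with GFP-positive cells supplemented by TdTomato-positive cells. Among the 7 Swiss Webster libraries chemistry therefore cannot be told apart from CD140a depletion, the Fev-Cre library differs from the other version 2 libraries in both strain and sort, and stage cannot be told apart from litter or from dissociation time, which was 10 min at E12.5, 15 min at E14.5 and 30 min at E17.5. In version 2 each stage was also processed on its own day. In version 1 the E12.5, the E17.5 and the second E14.5 library are labelled as 1 batch, and the first E14.5 library was collected on another day, so stage tests without it hold a single batch of version 1.

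The 8 libraries held 57982 cells, 2309 to 13182 per library, with medians of 2952 to 4332 UMIs per cell in version 1, 7503 to 11256 in version 2 and 7749 in the Fev-Cre library. Levels are given in CPM, the UMIs of a gene per 1000000 UMIs of its class and library. Cells were clustered without the FGF genes, and clusters were named from marker genes. Mesothelial-like cells (48 to 2365 per library) had UMIs of 8 of 8 measured mesothelial markers in every library. Other classes, such as acinar-like and immune-like cells, also reached 8 in at least 1 library. The markers summed to 1360 to 7437 CPM in mesothelial-like cells, against 340 to 1635 CPM in endothelial-like and 80.8 to 595 CPM in ductal-like cells. With the wells of version 2 E17.5 counted apart, 36 pairs of cell lists shared 0 to 156 barcodes, at most 1.78% of the smaller list. The other mesenchymal-like class, which takes in every mesenchymal cell that is neither mesothelial-like nor smooth-muscle-like, was less clean in version 2. There the mesothelial markers summed to 427 (E12.5), 430 (E14.5) and 3874 CPM (E17.5, 29 cells), against 88.6 to 129 CPM in the remaining libraries, and *Pdgfra* itself was at 2.91 to 9.11 CPM there against 38.4 to 84.1 CPM in version 1 and Fev-Cre. CPM allows a gene to be compared between classes, not one gene with another, since capture differs between genes. A library pools embryos, so p-values do not measure the spread between embryos. In class comparisons they measure how class differences vary between libraries that also differ in stage, chemistry, sort and strain. In stage tests only the E14.5 batches of version 1 share both stage and chemistry. The p-values of stage tests therefore rest mostly on how far stage changes differ between the chemistries.

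Promoters are printed for 4 genes on which the results turn, the mesothelial-like ligand *Fgf9*, the stromal ligand *Fgf10* and the ductal-like receptors *Fgfr3* and *Fgfr4*. Each run covers 250 bases before to 50 bases after the RefSeq transcription start on GRCm38.p6, 5' to 3' on the gene's strand, at chr14:58072436-58072735 (*Fgf9*, plus strand), chr13:118714449-118714748 (*Fgf10*, plus), chr5:33721474-33721773 (*Fgfr3*, plus) and chr13:55152568-55152867 (*Fgfr4*, plus). Capitals mark GC boxes, spelled GGGCGG or, on the other strand, CCGCCC.
Fgf9: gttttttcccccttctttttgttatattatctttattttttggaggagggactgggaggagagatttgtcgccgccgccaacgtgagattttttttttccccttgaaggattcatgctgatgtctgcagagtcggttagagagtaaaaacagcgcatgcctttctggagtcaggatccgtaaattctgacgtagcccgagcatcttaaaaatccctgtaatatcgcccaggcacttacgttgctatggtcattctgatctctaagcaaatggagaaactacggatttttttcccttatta
Fgf10: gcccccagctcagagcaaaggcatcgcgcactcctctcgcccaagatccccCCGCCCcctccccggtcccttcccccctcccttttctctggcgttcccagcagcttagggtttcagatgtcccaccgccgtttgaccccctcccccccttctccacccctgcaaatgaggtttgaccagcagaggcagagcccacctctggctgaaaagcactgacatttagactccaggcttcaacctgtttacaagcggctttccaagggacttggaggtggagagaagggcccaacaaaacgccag
Fgfr3: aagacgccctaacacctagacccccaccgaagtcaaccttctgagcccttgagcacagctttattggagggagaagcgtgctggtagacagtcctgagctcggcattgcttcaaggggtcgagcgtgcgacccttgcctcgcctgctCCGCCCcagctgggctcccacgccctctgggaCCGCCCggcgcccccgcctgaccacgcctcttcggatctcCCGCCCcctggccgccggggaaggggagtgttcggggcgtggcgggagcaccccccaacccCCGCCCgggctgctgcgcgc
Fgfr4: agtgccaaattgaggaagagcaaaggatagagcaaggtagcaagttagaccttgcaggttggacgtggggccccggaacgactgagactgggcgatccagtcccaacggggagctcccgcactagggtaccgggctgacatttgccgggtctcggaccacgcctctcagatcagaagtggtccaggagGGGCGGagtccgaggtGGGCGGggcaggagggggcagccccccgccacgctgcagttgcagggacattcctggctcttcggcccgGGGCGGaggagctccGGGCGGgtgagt
RefSeq promoters were matched for 7 of the 9 genes. A GC box occurs in 35.7% of the 32851 promoters of this length, a CCAAT box (CCAAT or ATTGG) in 37.4% and a TATA box (TATAAA or TTTATA) in 13.6%. The *Fgfr3* and *Fgfr4* promoters printed held 4 GC boxes each, that of *Fgf10* held 1, and that of *Fgf9* held 0. None of the matched promoters held a TATA box, and CCAAT occurred once in the promoter of *Fgf7* and once in that printed for *Fgfr3*. The base composition also differed, with 42.7% G and C for *Fgf9*, 60.7% for *Fgf10*, 69.7% for *Fgfr3* and 65.3% for *Fgfr4*, against a median of 52.7% over all promoters. The matched promoters not printed did not follow the classes. That of *Fgfr2*, also highest in ductal-like cells, held 0 GC boxes (43.7% G and C). That of *Fgf18* held 1 (78.7%), that of *Fgf7* held 0 (45.7%), and a second promoter of *Fgfr3* held 2 (73%). A motif match is a description of the letters only.

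*Fgf9* was highest in mesothelial-like cells, the surface lining of the organ. Its level there was 162 CPM (version 1 E12.5), 101 (E14.5 batch 1), 132 (E14.5 batch 2) and 71.7 (E17.5), then 177, 71.2 and 49.5 in version 2 from the earliest stage to the latest, and 147 in Fev-Cre. The lowest of these, 49.5 CPM, lay above the highest ductal-like value of 32.6 CPM but below that of other mesenchymal-like cells, 56.1 CPM in version 2 E12.5, and in 8 of 8 libraries mesothelial-like cells were above ductal-like cells. The class means were 114 ± 47.3 CPM (SD, n = 8 libraries) in mesothelial-like, 12.54 ± 9.09 in ductal-like, 11.3 ± 6.65 in endocrine-like and 10.9 ± 19.2 in other mesenchymal-like cells. Endothelial-like cells were at 0 in 6 of 8 libraries and vascular smooth muscle (VSM)-like cells in 7 of 8.

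Shares of cells with a UMI also put mesothelial-like cells first. After each cell was thinned to 2000 UMIs (version 1) or 3000 UMIs (version 2 and Fev-Cre), 24.3% ± 9.25 of mesothelial-like cells had an *Fgf9* UMI, and 42.2% before thinning. Immune-like cells, which serve here as the background of free RNA, had 0.565% after thinning and 1.06% before, with median depths of 2342 to 8409 UMIs against 3342 to 10857 in mesothelial-like cells. Acinar-like cells, at 0.660%, were near that background, while ductal-like and endocrine-like cells had 2.67% and 2.998%.

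*Fgf18*, a relative of *Fgf8* and *Fgf17*, was a transcript of the stroma as a whole. Mesothelial-like cells had 4.31 CPM at the lowest, 19.0 at the median and 30.2 at the highest, and other mesenchymal-like cells had 1.82, 7.71 and 31.0 CPM. The 2 ranges overlapped, though mesothelial-like cells were above the other mesenchymal-like cells in 7 of 8 libraries, the exception being version 1 E17.5 (11.03 against 31.0 CPM). VSM-like cells were at 5.65 ± 5.50 CPM and all epithelial-like cells together at 0.297 ± 0.382 CPM (both n = 8). Thinned shares were 4.06% in mesothelial-like, 1.87% in other mesenchymal-like and 0.00802% in immune-like cells.

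*Fgf1*, which lacks a classical signal peptide, had no single leading class. It averaged 8.59 ± 6.74 CPM in mesothelial-like, 7.95 ± 13.2 in other mesenchymal-like and 5.94 ± 6.803 in ductal-like cells (n = 8), with overlapping ranges. The other mesenchymal-like mean rested on 22 UMIs in the 29 cells of version 2 E17.5 (40.1 CPM), the next library being at 7.68 CPM. Acinar-like and endocrine-like cells were at 1.05 and 0.242 CPM. The thinned share was 2.18% in mesothelial-like and 0.0590% in immune-like cells.

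The 2 ligands of the epithelial Fgfr2 splice form were sparse. *Fgf10* gave 232 UMIs in other mesenchymal-like cells (5.16 ± 4.55 CPM, 0.544 to 12.8) and 197 in mesothelial-like cells (4.04 ± 2.70 CPM, 0 to 9.34), and these ranges overlapped. Mesothelial-like cells were the higher in 6 of 8 libraries, and the value of 12.8 CPM came from the 29 cells of version 2 E17.5. All epithelial-like cells together gave 13 UMIs (0.185 CPM on average), and endothelial-like cells gave 0, which allows up to 0.516 CPM over the pooled libraries. The thinned share of cells with an *Fgf10* UMI was 1.74% in other mesenchymal-like cells, 1.15% in mesothelial-like cells and 0.00802% in immune-like cells. VSM-like cells were at 1.49 ± 2.42 CPM (8 UMIs), so at this depth *Fgf10* was seen in the stromal classes and was near 0 in epithelial-like and endothelial-like cells.

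*Fgf7*, known as keratinocyte growth factor, had most of its UMIs in 1 library. Of its 160 UMIs in other mesenchymal-like cells, 128 came from version 1 E17.5 (42.2 CPM, 95% Poisson interval 35.2 to 50.1), and the highest of the other libraries was 1.80 CPM. The median over libraries was 0.347 CPM. The clusters led by *Nfatc2* and *Cxcl1* and by *Rgs5* and *Chst2*, both shared with other libraries, held 47 and 29 *Fgf7* UMIs (9.83 and 7.48 CPM). Levels were higher in 2 smaller clusters made up wholly or nearly so of version 1 E17.5 cells, which held 27 and 17 UMIs. The cluster led by *Ly6a* and *Mfap5*, with 203 of its 208 cells from version 1 E17.5, had *Fgf7* at 42.9 CPM, *Fgf10* at 27.0, *Fgf18* at 60.4 and *Fgfr1* at 116 CPM. The cluster led by *Egr2* and *Rgs2*, with 188 cells all of that library, had *Fgf7* at 35.5 and *Fgf10* at 2.09 CPM. Endothelial-like cells had 0 *Fgf7* UMIs, which again allows up to 0.516 CPM.

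*Fgfr1*, the FGF receptor gene best known from mesenchyme, had its highest mean in other mesenchymal-like cells. Other mesenchymal-like cells had 87.7, 73.9, 79.4 and 86.6 CPM in the version 1 libraries (E12.5, both E14.5 batches in turn, then E17.5), 57.2 in Fev-Cre, and 33.2 (E12.5), 13.8 (E14.5) and 25.5 CPM (E17.5) in version 2. The 3 low libraries are those depleted of CD140a-positive cells, and in 2 of them other classes were higher. In version 2 E14.5, VSM-like (14.25 CPM, 2 UMIs) and mesothelial-like cells (14.2 CPM) were level with other mesenchymal-like cells, and in version 2 E17.5 neural crest and glia-like (38.6), mesothelial-like (31.7) and VSM-like cells (28.9 CPM) were above them. VSM-like cells averaged 30.4 ± 14.4, mesothelial-like 27.2 ± 7.82, endothelial-like 18.2 ± 12.01, acinar-like 15.9 ± 6.74, ductal-like 14.9 ± 5.79 and endocrine-like cells 8.52 ± 3.06 CPM (n = 8). Neighbours in this order overlapped, but ductal-like cells were above endocrine-like cells in 8 of 8 libraries. Thinned shares ran from 11.9% in other mesenchymal-like to 2.13% in endocrine-like cells, against 1.08% in immune-like and 0.716% in erythroid-like cells.

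*Fgfr2*, whose epithelial splice form is the Fgf7 and Fgf10 receptor, was highest in ductal-like cells, which line the branching tubes. The levels there were 52.6, 89.9, 71.0 and 75.0 CPM in version 1 and 50.7, 33.6 and 71.2 CPM in version 2, in the same order of stages, and 59.1 in Fev-Cre. All 8 lay above every value in acinar-like (2.42 to 16.3), endocrine-like (1.05 to 18.0) and stromal classes (0 to 17.7 CPM). In version 2 some epithelial cells (478, 257 and 76 by stage) were given no single class and were counted with the epithelial-like cells only. They had *Fgfr2* at 28.6, 18.3 and 46.4 CPM, the last above the lowest ductal-like value. In other mesenchymal-like cells, *Fgfr2* was at 17.7 CPM (version 1) and 12 CPM (version 2) in the E12.5 libraries and at 1.32 to 5.46 CPM in the other 6. The 2 version 1 mesenchymal clusters with the most *Fgfr2*, both mostly of E12.5 cells, had 22.8 and 16.9 CPM. Of the 7 classes plotted, mesothelial-like cells had the lowest mean, 2.16 ± 1.23 CPM, and a thinned share of 0.572% beside 0.491% in immune-like cells and 13.2% ± 4.82 in ductal-like cells.

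*Fgfr3* also had its highest mean in ductal-like cells but varied more, with 15.5, 31.1, 18.2 and 58.7 CPM in version 1 and 5.44, 5.69 and 35.6 CPM in version 2 (stages in the order above), and 7.06 CPM in Fev-Cre. Both E17.5 libraries were the highest of their chemistry. Endocrine-like cells were at 6.22 ± 3.65 CPM and overlapped that range, being lower than ductal-like cells in 7 of 8 libraries and higher in version 2 E12.5 (5.998 CPM). The acinar-like mean, 0.735 CPM, was below the stromal means of 1.54 to 2.11 CPM, so not every epithelial class was above the stroma. The thinned share was 4.96% in ductal-like, 1.82% in endocrine-like, 0.383% in mesothelial-like and 0.0401% in immune-like cells.

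*Fgfr4*, a receptor that with the co-receptor Klb also responds to the hormone-like ligand Fgf15, was found mainly in the epithelium. Ductal-like cells had 25.6 CPM at the lowest, 35.7 at the median and 74.3 at the highest, endocrine-like cells 7.05, 17.02 and 31.5, and acinar-like cells 0.872, 10.3 and 17.3 CPM. Ductal-like cells were above endocrine-like cells in 7 of 8 libraries, and acinar-like cells were above mesothelial-like cells in 8 of 8. Stromal and endothelial-like means were 0.679 to 1.19 CPM, beside 1.18 CPM in immune-like cells, and their thinned shares of 0 to 0.235% did not exceed the immune-like 0.323%. Acinar-like CPM of every gene are taken over totals that digestive enzyme mRNA fills.

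The classes were then compared in edgeR on UMIs summed per library and class, with a term for each library. A call needed a Benjamini-Hochberg adjusted p below 0.05 over all genes tested and a change of at least 2-fold. Not every member had enough UMIs to be tested in every comparison, and a member that passed the filter through the class where it was high was bound to differ. Such members are named with each comparison, and their calls are a description that supports nothing further. The filter asked for 8 sums of a library and class at a minimum CPM set by the depth of each comparison. In the stage tests it asked for 2 sums. Counts of called members are set beside the share of all tested genes that was called. For other settings and left-out libraries this share is not given, so member counts there say nothing of the members in particular.

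Mesothelial-like cells were higher than the other mesenchymal-like cells in *Fgf9* and *Fgf18*. Of 5 members tested, 2 were called, *Fgf9* (log2 fold 4.66, SE 0.724, adjusted p = 0.000672) and *Fgf18* (1.46, SE 0.339, adjusted p = 0.00716), against 12.2% of all genes tested. Both passed the filter through mesothelial-like cells, which reached its minimum in 8 of 8 libraries, while other mesenchymal-like cells did so in 4 for *Fgf9* and in 5 for *Fgf18*. *Fgfr1* was lower by less than 2-fold (log2 fold -0.94, adjusted p = 0.00294). *Fgf1* (0.41, adjusted p = 0.508) and *Fgf10* (0.31, adjusted p = 0.569) did not pass. In the version 2 libraries other mesenchymal-like cells had *Fgf9* at 56.1 (E12.5), 18.9 (E14.5) and 3.64 CPM (E17.5), against 0.329 to 3.86 CPM elsewhere. The high values lay in clusters led by *Mab21l2* and *Gabrb1* (379 cells, 105 CPM) and by *Lrp1b* and *Apela* (377 cells, 123 CPM), while the largest such cluster (1180 cells) had 1.90 CPM. The mesothelial markers were high in these same libraries, and their part in the result was not tested. Without the library block, *Fgf18* was not called (0.82, adjusted p = 0.365).

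Against all epithelial-like cells, both stromal classes were lower in *Fgfr2*, *Fgfr3* and *Fgfr4* and higher in *Fgf18*. In mesothelial-like cells 6 of 7 tested members were called, against 24.4% of all genes tested. *Fgf18* (log2 fold 5.98, adjusted p = 1.39e-07), *Fgf9* (3.83, adjusted p = 9.35e-06) and *Fgf1* (1.71, adjusted p = 0.00317) were higher, and *Fgfr4* (-4.88, adjusted p = 1.05e-06), *Fgfr2* (-3.33, adjusted p = 4.3e-07) and *Fgfr3* (-2.08, adjusted p = 0.000409) were lower. *Fgfr1* was higher by less than 2-fold (0.89, adjusted p = 0.00162). *Fgf18*, *Fgfr2*, *Fgfr3* and *Fgfr4* passed the filter through the class where they were high, since the lower class reached its minimum in 0, 3, 1 and 1 of 8 libraries. *Fgf18* had 52 UMIs in all epithelial-like cells and *Fgfr4* had 29 in mesothelial-like cells. Of the called members, *Fgf9* reached the minimum in 8 of 8 libraries of both classes, and *Fgf1* in 6 of mesothelial-like and 3 of epithelial-like cells. The epithelial markers summed to 236 to 1273 CPM in mesothelial-like cells. The *Fgf1* call was lost without the library block and in version 2 alone.

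Other mesenchymal-like cells gave 5 calls among 7 tested members, against 29% of all genes tested. *Fgf18* (log2 fold 4.84, adjusted p = 1.37e-06) and *Fgfr1* (1.90, adjusted p = 0.000623) were higher than in epithelial-like cells. *Fgfr4* (-5.05, adjusted p = 1.63e-06), *Fgfr2* (-2.30, adjusted p = 0.000483) and *Fgfr3* (-1.96, adjusted p = 0.0016) were lower. *Fgf18*, *Fgfr3* and *Fgfr4* passed the filter through the class where they were high, the lower class reaching its minimum in 1, 6 and 2 of 8 libraries. For *Fgfr1* and *Fgfr2* it did so in 8. *Fgf1* (1.17, adjusted p = 0.126) and *Fgf9* (-0.73, adjusted p = 0.539) were not called, and *Fgf9* took opposite signs in the 2 chemistries, -3.02 in version 1 (adjusted p = 0.00754) and 1.20 in version 2. *Fgf10* entered the test only when the filter on low counts was dropped, with log2 folds of 6.31 for other mesenchymal-like cells (adjusted p = 4.82e-05) and 6.55 for mesothelial-like cells (adjusted p = 1.24e-05).

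Endothelial-like cells, 26 to 229 per library, had few UMIs of any member but *Fgfr1*, the main FGF receptor of endothelium. The 8 values of *Fgfr1* ran from 2.70 to 36.3 CPM, with a median of 16.8. *Fgfr1* was the 1 member tested against other mesenchymal-like cells and was lower (log2 fold -1.38, SE 0.281, adjusted p = 0.00149), where 19.1% of all genes tested were called. It passed the filter through other mesenchymal-like cells, which reached its minimum in 8 of 8 libraries, while endothelial-like cells did so in 7. Against epithelial-like cells 2 of 3 tested members were called, against 25.7% of all genes, *Fgfr4* (-4.11, adjusted p = 5.53e-07) and *Fgfr2* (-3.17, adjusted p = 3.39e-06), with *Fgfr1* at 0.47 (adjusted p = 0.213). Both called members passed the filter through the epithelium, since endothelial-like cells reached its minimum in 0 of 8 libraries for *Fgfr4* (7 UMIs) and in 2 for *Fgfr2* (19 UMIs). The *Fgfr1* call was lost in version 2 alone.

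VSM-like cells, the contractile cells around vessels, gave 0 calls for the 1 member tested against other mesenchymal-like cells, beside 3.51% of all genes. That member, *Fgfr1*, was lower by less than 2-fold (log2 fold -0.86, SE 0.206, adjusted p = 0.0231). Without the filter on low counts *Fgf9*, *Fgf10* and *Fgf1* were called lower (-4.47, -2.44 and -2.58), and without version 2 E17.5 or without Fev-Cre 1 member was called.

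Within the epithelium, acinar-like cells, which make digestive enzymes, were lower than ductal-like cells in 5 of 6 tested members, against 13.4% of all genes tested. The differences were -3.30 for *Fgfr3* (adjusted p = 2.28e-05), -2.59 for *Fgfr2* (adjusted p = 8.43e-06), -1.99 for *Fgf9* (adjusted p = 0.0027), -1.73 for *Fgfr4* (adjusted p = 0.00135) and -1.71 for *Fgf1* (adjusted p = 0.00774). *Fgfr3*, *Fgf9* and *Fgfr4* passed the filter through ductal-like cells, with acinar-like cells at its minimum in 1, 5 and 7 of 8 libraries. For *Fgf1*, 2 libraries of acinar-like and 6 of ductal-like cells reached it, and for *Fgfr2* 8 of both. *Fgfr1* was higher in acinar-like cells by less than 2-fold (0.44, adjusted p = 0.022). With library totals in place of TMM the median of all genes moved to -0.45. Each chemistry alone gave 2 calls. In version 1 these were *Fgfr2* and *Fgfr4*, and *Fgf1*, *Fgf9* and *Fgfr3* had too few UMIs to be tested. In version 2 the calls of *Fgf1*, *Fgf9* and *Fgfr4* were lost, and that of *Fgf1* was also lost with classes from marker UMIs alone.

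Endocrine-like cells were lower than ductal-like cells in 3 of 5 tested members, against 26.3% of all genes tested. *Fgfr2* differed most (log2 fold -2.88, SE 0.309, adjusted p = 1.11e-05), then *Fgfr3* (-1.41, adjusted p = 0.0025) and *Fgfr4* (-1.23, adjusted p = 0.000267). *Fgfr2* and *Fgfr3* passed the filter through ductal-like cells, with endocrine-like cells at its minimum in 7 of 8 libraries for each. For *Fgfr4*, 8 of 8 libraries of both classes reached it. *Fgfr1* was lower by less than 2-fold (-0.86, adjusted p = 0.00123). *Fgf9* was at -0.01 (adjusted p = 0.966), and its sign changed between settings. The *Fgfr3* call was lost in version 2 alone.

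**Figure D1:**
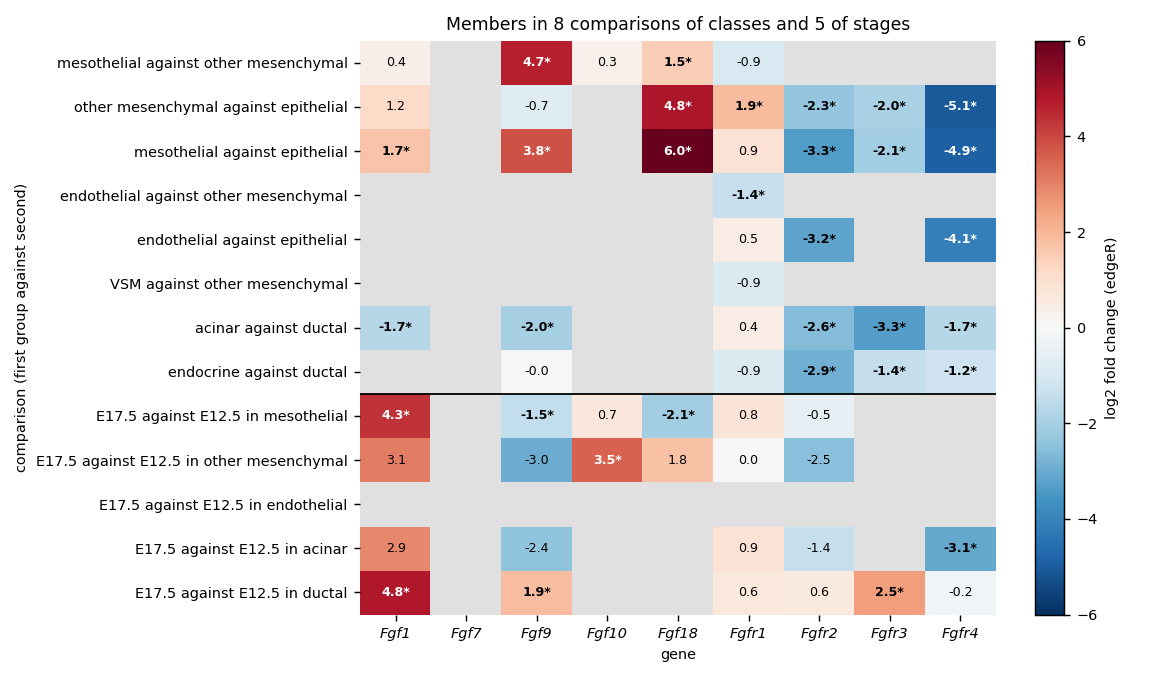
Log2 fold change from edgeR for each of the 9 genes (columns) in 8 comparisons of classes and, below the line, 5 of stages (rows, first group against second), coloured from -6 to 6. Asterisks and bold print mark calls, and grey marks genes with too few UMIs to be tested. *Fgfr2*, *Fgfr3* and *Fgfr4* are lower in mesothelial-like and other mesenchymal-like cells than in all epithelial-like cells together, and *Fgf18* is higher.

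The endocrine-like class is a mixture, so its clusters were also read by leading gene, as levels without a test. Clusters led by *Neurog3*, the gene that starts the endocrine programme, had the highest mean receptor levels of the endocrine-like clusters, over the libraries that had them: *Fgfr4* at 39.6 ± 16.3, *Fgfr3* at 17.2 ± 9.82, *Fgfr1* at 17.8 ± 11.3 and *Fgfr2* at 13.2 ± 3.57 CPM (n = 7 libraries). In clusters led by *Fev*, the next stage, they were at 18.9, 5.84, 6.63 and 10.2 CPM (n = 8). In the 7 libraries with both, *Neurog3*-led clusters were above *Fev*-led ones in 7 for *Fgfr3* and *Fgfr4* and in 6 for *Fgfr1*, but in 4 for *Fgfr2*. The 9 ductal markers were also higher in the *Neurog3*-led clusters in 7 of 7 libraries. They summed to 1692 to 6079 CPM there, to 787 to 4168 CPM in *Fev*-led and to 415 to 2273 CPM in hormone-led clusters, and their part in the result was not tested. In the 3 version 2 libraries, from the earliest stage to the latest, *Fgfr2* was at 16.65, 8.285 and 14.1 CPM in *Neurog3*-led and at 28.8, 14.6 and 15.8 CPM in *Fev*-led clusters. The *Fev*-led cells of version 2 E12.5 and E14.5 were deep, with medians of 15076 and 13867 UMIs per cell against 5276 and 4444 in *Neurog3*-led cells, and the doublet caller Scrublet, not used for the levels, called 67.7% and 80.1% of them (9.49% in version 2 E17.5). Their median in Fev-Cre was 6638 UMIs, with 2.33% called, and *Fgfr2* there was at 12.6 CPM in *Neurog3*-led and 8.12 CPM in *Fev*-led clusters. Without the called cells, a setting chosen after seeing the data, *Fgfr2* of the 3 version 2 libraries was at 17.3, 8.42 and 14.1 CPM in *Neurog3*-led and at 31.8, 32.3 and 11.6 CPM in *Fev*-led clusters. The part of doublets in the *Fev*-led levels was not tested. Compared with ductal-like cells, *Neurog3*-led clusters were higher in 5 of 7 libraries for *Fgfr1*, in 4 for *Fgfr3*, in 2 for *Fgfr4* and in 0 for *Fgfr2*. In clusters led by the hormone genes *Ins1* or *Ins2* (n = 7), *Gcg* (n = 7), *Sst* (n = 4) and *Ghrl* (n = 3), *Fgfr4* was at 9.27, 11.7, 10.9 and 13.9 CPM and *Fgfr2* at 5.03, 1.67, 0.806 and 7.53 CPM. *Fgf18* was also seen in the *Neurog3*-led clusters, with 25 of the 33 UMIs of all endocrine-like cells (2.102 CPM).

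The *Fgf9* of endocrine-like cells was uneven. *Sst*-led clusters, of delta-type cells, had 34.8 ± 11.8 CPM (18.4 to 44.2, n = 4 libraries) and *Ghrl*-led clusters had 12.02 CPM in Fev-Cre, 50.6 in version 2 E14.5 and 77.7 in version 2 E17.5. The *Neurog3*-, *Fev*-, *Ins1* or *Ins2*- and *Gcg*-led clusters had means of 8.39, 10.3, 8.52 and 10.6 CPM. These levels rest on 70 *Fgf9* UMIs in *Sst*-led and 79 in *Ghrl*-led cells.

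**Figure D2:**
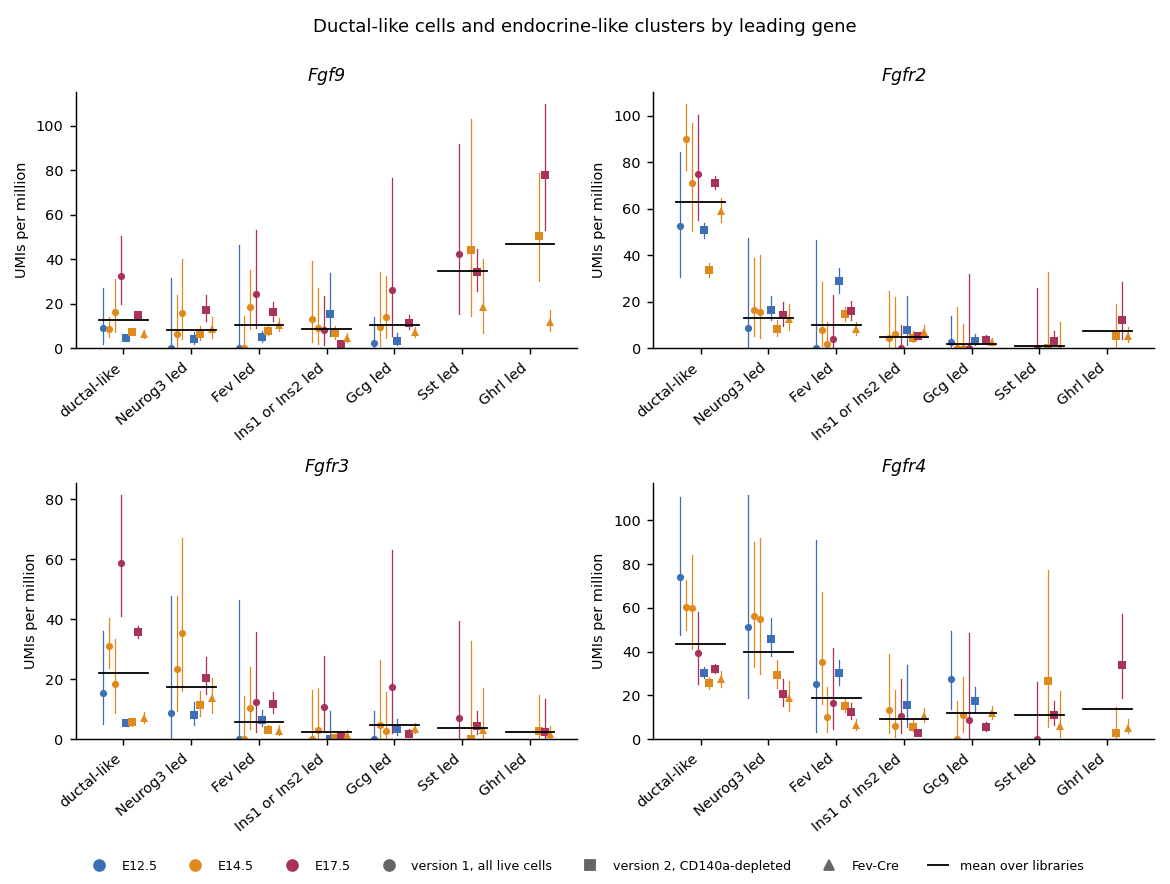
Level (CPM) of *Fgf9*, *Fgfr2*, *Fgfr3* and *Fgfr4* in ductal-like cells and in endocrine-like clusters grouped by leading gene, 1 point per library with its exact 95% Poisson interval (counting error only) and the mean over libraries as a bar. *Fgfr4* is at 39.6 CPM in *Neurog3*-led clusters and at 9.27 to 13.9 CPM in the hormone-led clusters, where the ductal markers summed to 1692 to 6079 and 415 to 2273 CPM, and *Fgf9* is highest in *Ghrl*- and *Sst*-led clusters.

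Stages were compared across the 7 Swiss Webster libraries, E17.5 against E12.5 with a term for chemistry. Mesothelial-like cells gave 3 calls among 6 tested members, against 18.5% of all genes. *Fgf9* fell (log2 fold -1.50, SE 0.306, adjusted p = 0.00303), from 162 to 71.7 CPM in version 1 and from 177 to 49.5 in version 2. *Fgf18* fell (-2.11, SE 0.501, adjusted p = 0.008), from 22.9 to 11.03 and from 25.9 to 4.31 CPM. *Fgf1* rose (4.35, SE 0.73, adjusted p = 0.000691), from 4.11 to 11.03 and from 0.344 to 15.2 CPM. The version 1 E17.5 values rest on 48 cells, with 13 UMIs of *Fgf9* and 2 each of *Fgf1* and *Fgf18*. *Fgf1* passed the filter through the later stages, with 1 of 2 libraries of E12.5 at its minimum, 2 of 3 of E14.5 and 2 of 2 of E17.5. For *Fgf9* and *Fgf18* every library reached it. Without version 2 E12.5, or without version 2 E17.5, 0 members were called.

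In other mesenchymal-like cells 1 of 6 tested members was called, against 8.07% of all genes. *Fgf10* rose (log2 fold 3.52, SE 0.834, adjusted p = 0.0338), from 0.544 to 10.5 CPM in version 1 and from 1.96 to 12.8 CPM in version 2, with the E14.5 libraries at 4.21, 3.495 and 0.728 CPM. The version 2 E17.5 value rests on 7 UMIs in 29 cells, in which the mesothelial markers summed to 3874 CPM, against 427 CPM in version 2 E12.5, and their part in the result was not tested. *Fgf10* passed the filter through the later stages, with 0 of 2 libraries of E12.5 at its minimum, 2 of 3 of E14.5 and 2 of 2 of E17.5. The call was lost under 5 of 17 other settings, among them the fits without version 1 E12.5, version 1 E17.5 or version 2 E17.5. In all, 2 members were called without version 1 E14.5 batch 1 or version 2 E17.5, 3 without version 2 E12.5 and 4 without version 2 E14.5. *Fgfr2* (-2.49, adjusted p = 0.0639) and *Fgf9* (-2.98, adjusted p = 0.0705) had lower values at E17.5 without passing, and *Fgf18* (1.77, adjusted p = 0.414), *Fgf1* (3.06, adjusted p = 0.416) and *Fgfr1* (0.03) did not pass either. Whether the stage changes of mesothelial-like and other mesenchymal-like cells differ was tested directly. None of the 8 members tested was called in edgeR or DESeq2, while 0.12% of all genes were called in edgeR (15 genes, with 1068 at an unadjusted p under 0.05). The nearest members were *Fgf10* (-2.74, adjusted p = 0.429) and *Fgf18* (-2.63, adjusted p = 0.494).

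*Fgfr3* and 2 ligands rose in ductal-like cells and *Fgfr4* fell in acinar-like cells. In ductal-like cells 3 of 6 tested members were called, against 6.69% of all genes. *Fgfr3* rose (log2 fold 2.52, SE 0.44, adjusted p = 0.00408), *Fgf1* rose (4.81, SE 0.769, adjusted p = 0.00235), from 0 to 19.6 CPM in version 1 and from 0.504 to 12.2 in version 2, and *Fgf9* rose (1.87, SE 0.501, adjusted p = 0.0448), from 9.28 to 32.6 and from 4.69 to 15.1 CPM. The version 1 E12.5 values rest on 61 cells, with 3 UMIs of *Fgf9*, 5 of *Fgfr3* and 0 of *Fgf1*, which allows up to 11.4 CPM. Those of version 1 E17.5 rest on 154 cells, with 20, 36 and 12 UMIs in the same order. *Fgf1* passed the filter through E17.5, with 0 of 2 libraries of E12.5 and 1 of 3 of E14.5 at its minimum. *Fgfr3* and *Fgf9* passed it through the later stages, with 1 of 2 libraries of E12.5, 3 of 3 of E14.5 and 2 of 2 of E17.5 at the minimum. *Fgfr1* (0.62), *Fgfr2* (0.57) and *Fgfr4* (-0.17) were not called. Without version 2 E12.5, 0 members were called, and without version 2 E17.5, 1. The *Fgf9* call was lost under 12 of 17 other settings, that of *Fgfr3* without version 2 E12.5, without version 2 E17.5 or without the chemistry term, and that of *Fgf1* without version 2 E12.5.

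In acinar-like cells 1 of 5 tested members was called, against 18.3% of all genes. *Fgfr4* fell (log2 fold -3.06, SE 0.7, adjusted p = 0.00434), from 17.3 CPM at E12.5 to 6.63 at E14.5 and 0.872 at E17.5 in version 2. In version 1 it was at 14.45, 15.9, 9.60 and 7.06 CPM, the last from 1 UMI in 43 cells. *Fgfr4* passed the filter through the earlier stages, with 2 of 2 libraries of E12.5 at its minimum, 3 of 3 of E14.5 and 1 of 2 of E17.5. The clusters of version 2 showed the same levels, with 16.4 and 17.9 CPM in those mostly of E12.5 and 1.09 and 0 CPM in those of E17.5. *Fgf9* (-2.40, adjusted p = 0.0819) and *Fgf1* (2.87, adjusted p = 0.113) did not pass, and 0 members were called without version 2 E12.5 or version 2 E17.5, and 2 without version 1 E17.5. Without version 1 E14.5 batch 1, which leaves 1 batch of version 1, 3 were called, *Fgfr4* (-3.31, adjusted p = 1.53e-06), *Fgf9* (-2.41, adjusted p = 0.0313) and *Fgfr2* (-1.55, adjusted p = 0.0229). In endothelial-like cells 0 members had enough UMIs to be tested, beside 4.07% of all genes called.

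**Figure D3:**
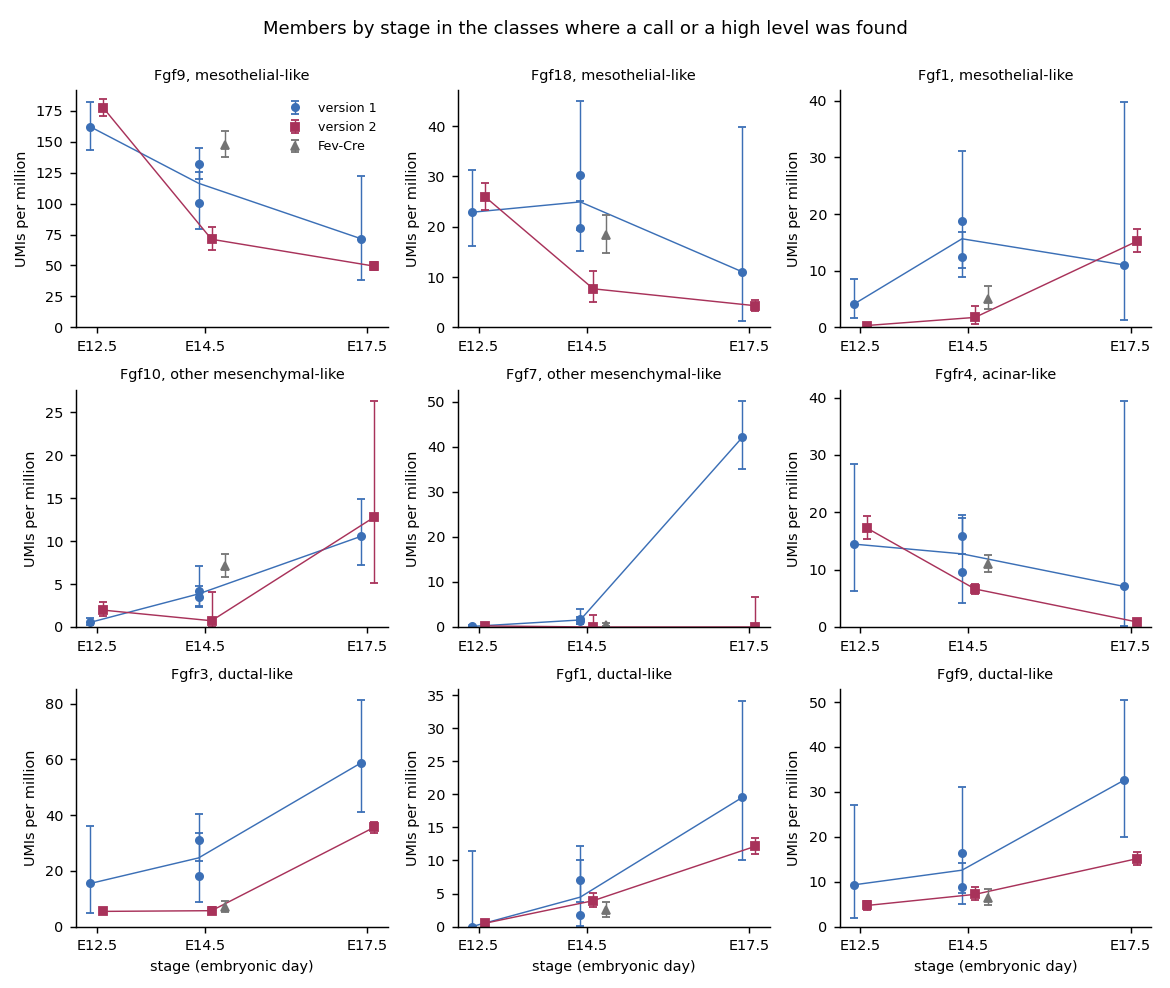
Level (CPM) by embryonic day for 9 pairs of gene and class, with exact 95% Poisson intervals that cover counting error only, and lines through the mean of each stage for version 1 and version 2. *Fgf9* in mesothelial-like cells is lower at E17.5 than at E12.5 in both chemistries (71.7 against 162 and 49.5 against 177 CPM), and *Fgfr3* in ductal-like cells is higher (58.7 against 15.5 and 35.6 against 5.44 CPM).

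The 60 other genes of the pathway give the setting of these levels. Which group carried each of these genes past the filter was not examined, so their calls too are a description only. Among genes tested, mesothelial-like cells had 7 of 38 higher and 6 of 38 lower than other mesenchymal-like cells, with a median log2 fold of -0.13 beside -0.03 over all genes, of which 12.2% were called. The higher ones included the ligands *Fgf5* (log2 fold 4.05, adjusted p = 0.0012) and *Fgf13* (2.29, adjusted p = 0.000166), the latter an intracellular relative that does not act through the receptors, and the ligand carrier *Fgfbp1* (4.52, adjusted p = 0.00117). Of the 12 feedback inhibitors and target genes 7 were tested, 3 lower and 1 higher. The lower ones were *Spry1* (-3.80, adjusted p = 1.27e-06), *Dusp6* (-2.40, adjusted p = 1.54e-06) and *Spred1* (-1.58), and the higher one was *Il17rd* (1.24), also an inhibitor of the pathway. *Spred2* (-0.76), *Etv1* (-0.37) and *Spry2* (0.06) were not called. *Spry1* was at 4.65 ± 2.83 CPM in mesothelial-like, 59.4 ± 30.6 in other mesenchymal-like, 80.1 ± 51.2 in VSM-like, 49.5 ± 31.0 in endothelial-like and 33.5 ± 19.8 in ductal-like cells (n = 8). *Dusp6* was at 6.75 ± 3.47, 30.6 ± 12.1, 51.9 ± 23.0, 172 ± 66.2 and 42.1 ± 20.8 CPM in the same classes. Of these 5 classes mesothelial-like cells had the lowest mean of both genes, and endothelial-like cells had the highest of *Dusp6*, which also responds to other growth factor receptors.

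Against epithelial-like cells, mesothelial-like cells had 12 of 40 tested pathway genes higher and 7 lower (median 0.23), where 24.4% of all genes were called. Of the 12 feedback inhibitors and target genes 8 were tested, and 5 were lower, *Dusp4* (log2 fold -5.06), *Etv5* (-4.46), *Dusp6* (-2.29), *Spry1* (-1.88) and *Etv1* (-1.30). *Spry2* was higher (1.68), and *Spred1* (0.15) and *Spred2* (-0.99) were not called. Other mesenchymal-like cells had 17 of 43 tested genes higher than epithelial-like cells and 10 lower (median 0.56), where 29% of all genes were called. The higher ones included *Sulf1* (4.50), an enzyme that trims heparan sulfate, *Fgf13* (3.83) and the membrane protein gene *Flrt3* (3.48), and the lower ones included the Fgfr4 co-receptor *Klb* (-5.30), *Dusp4* (-2.02) and the heparan sulfate carrier *Sdc4* (-1.64). *Klb* was thus low in the same class as *Fgfr4*. Endothelial-like cells had 4 of 30 genes higher and 11 lower than other mesenchymal-like cells (median -0.60, 19.1% of all genes called), with *Etv4* (2.88), *Dusp6* (2.59) and the heparan sulfate proteoglycan *Hspg2* (2.24) higher and *Sdc2* (-4.95), *Sulf1* (-4.60) and *Gpc3* (-4.50) lower. Against epithelial-like cells they had 7 of 29 higher and 10 lower (median -0.25, 25.7% of all genes called). VSM-like cells had 0 higher and 1 lower of 24, *Sulf2* (-1.29, adjusted p = 0.0326), beside 3.51% of all genes.

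Within the epithelium, acinar-like cells had 2 of 39 pathway genes higher and 7 lower than ductal-like cells (median -0.29, 13.4% of all genes called), the higher ones being the target genes *Etv1* (log2 fold 1.67) and *Etv5* (1.65). Endocrine-like cells had 8 of 39 higher and 13 lower (median -0.26, 26.3% of all genes called). *Etv1* led the higher ones (5.40), and *Hs6st2*, which adds sulfate to heparan chains (-3.50), *Sdc4* (-2.72) and *Spry1* (-2.69) led the lower ones. *Etv1* was at 95.8 ± 45.8 CPM in endocrine-like cells and 3.75 ± 6.25 in ductal-like cells (n = 8). Over stages, 8 of 42 tested genes rose and 5 fell in mesothelial-like cells, 3 of 44 rose and 1 fell in other mesenchymal-like cells, 2 of 40 rose and 5 fell in acinar-like cells, and 8 of 36 rose and 2 fell in ductal-like cells. The shares of all genes called in these tests were 18.5%, 8.07%, 18.3% and 6.69%. *Fgfbp1* rose in mesothelial-like, acinar-like and ductal-like cells, by log2 folds of 6.65, 6.245 and 3.76. It was also called in other mesenchymal-like cells (6.004), where version 1 had 0 UMIs at both stages and version 2 E17.5 had 21 UMIs in the 29 cells with mesothelial markers at 3874 CPM, whose part in the result was not tested. In endothelial-like cells 0 of 11 tested genes were called, beside 4.07% of all genes, and 0 of 46 were called in the test of the difference between stage changes, beside 0.12%.

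The genes whose levels ran most alike over the 82 sums of class and library were found for each member, as a description in which sums of 1 library share its depth. *Fgf9* ran with *Myrf* (Pearson r 0.853), *Tm4sf5* (0.788) and *Sbspon* (0.780), and *Fgf18* with *Rspo3* (0.820), *Olfml1* and *Clmp* (both 0.804). *Fgf10* ran with *Ogn* (0.837), *Cpz* (0.809) and *Sema3a* (0.752), *Fgf7* with *Dpt* (0.761), *Clec3b* (0.670) and *Ctsk* (0.565), and *Fgf1* with *Col4a5* (0.701), *Krt17* (0.693) and *Fgfbp1* (0.630). Among the receptors, *Fgfr4* had the closest companions, *Ovol2* (0.917), *Tmem171* (0.915) and *Hnf1aos1* (0.914). *Fgfr2* ran with *Sox9* (0.802), *Col9a1* (0.792) and *1700011H14Rik* (0.784), *Fgfr3* with *Fmo2* (0.772), *Slc28a3* (0.763) and *Dcdc2a* (0.742), and *Fgfr1* with *Tcf7l1* (0.758), *Ppp2r3a* (0.752) and *Sqle* (0.747). *Sox9* and *Dcdc2a* are among the markers that named the ductal-like class.

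Reads of neighbouring genes can bear on some of these counts. On GRCm38, *Fgf1* (chr18:38838673-38929472), *Fgf7* (chr2:126034658-126091185) and *Fgf10* (chr13:118669791-118792115) are overlapped on the opposite strand by *Arhgap26*, *Fam227b* and *Gm16263*. The model of *Fgfr2* (chr7:130162451-133123350) is stretched by 1 of its 27 transcripts over genes of the same strand such as *Ate1*, the other transcripts ending by 130266263. The remaining members lie at chr14:58070547-58112720 (*Fgf9*), chr11:33117430-33147400 (*Fgf18*), chr8:25513654-25575718 (*Fgfr1*), chr5:33721674-33737068 (*Fgfr3*) and chr13:55152640-55168759 (*Fgfr4*). Of these, *Fgf9*, *Fgfr1* and *Fgfr3* are overlapped on the opposite strand by *Gm17109*, *Gm16159* and *G630022F23Rik*, which the count tables do not hold.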

How the data were processed

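The authors aligned the reads to mm10 with Cell Ranger (1.1 for version 1 libraries and 2.1 for version 2, per the submitters' processing notes) and deposited UMI counts per gene and cell, unnormalized. From these 10 matrices, the Fev-Cre library was read from the reporter alignment and the 2 E17.5 version 2 wells were summed. Cells with at least 200 genes were kept and clustered with leidenalg 0.10.2 at resolution 1, with version 1, version 2 and Fev-Cre each clustered apart. The clustering used variable genes without the members and pathway genes, and clusters were named by marker genes. Scrublet was run in scanpy 1.11.5. Cells with marker genes of 2 compartments were removed as doublets. Classes with at least 20 cells in a library were summed. Levels are CPM with exact 95% Poisson intervals, which cover counting error only. Floors are 3 UMIs over the pooled libraries.

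Sums were tested with the edgeR 4.0.16 quasi-likelihood test in R 4.3.3 (TMM scaling, filterByExpr, library as a block with 7 residual degrees of freedom; for stage a chemistry term with 3), two-sided, with Benjamini-Hochberg adjusted p below 0.05 and at least 2-fold. The block pairs classes that were taken from 1 suspension. Alternatives were DESeq2 1.42.0, other scaling, filters, doublet rules, class rules, subsets of libraries and each library left out. The test script was tested on simulated data. The pathway genes named are at most the 3 called genes of largest log2 fold per direction, and the likest genes are the 3 with the highest Pearson r of log2(CPM + 1). Members and lists were chosen with earlier results of these data known.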

Additional observations from a re-analysis of the deposited data

Results flagged for a closer look

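In 7 of 34 groups of 8 libraries with at least 50 UMIs, the highest library stood apart from the rest, with a gap to the next over the whole range above Dixon's 95% critical value. For normally distributed values of equal precision chance would flag about 1 in 20 groups. CPM of libraries of unlike depth need not meet this, so the number of flags is not compared with that rate. All 7 are levels in CPM, and their causes were not tested.

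Among the ligands, *Fgf7* in other mesenchymal-like cells was 42.16 CPM in version 1 E17.5 (128 UMIs), with the next library at 1.802 CPM. *Fgf18* in the same class and library was 30.96 CPM (94 UMIs), the next being 10.83. *Fgf1* in other mesenchymal-like cells was 40.07 CPM in version 2 E17.5 (22 UMIs from 29 cells), the next being 7.679. *Fgf9* in other mesenchymal-like cells was 56.09 CPM in version 2 E12.5 (715 UMIs), the next being 18.93 in version 2 E14.5. In ductal-like cells *Fgf9* was 32.61 CPM in version 1 E17.5 (20 UMIs), the next being 16.38.

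Among the receptors, *Fgfr3* stood apart in version 1 E14.5 batch 1 in 2 stromal classes. It was 3.772 CPM in mesothelial-like cells (3 UMIs, next library 1.765 CPM) and 5.707 CPM in other mesenchymal-like cells (19 UMIs, next library 1.984 CPM), and the 95% Poisson intervals of these values, 0.778 to 11.02 and 3.44 to 8.91 CPM, cover counting error only.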

How the results depend on the processing

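Counts of members called moved as follows, the cause not being tested except where the setting tests more or fewer genes or samples. Without the low-count filter, which tests more genes, they were 4 for mesothelial-like and 6 for endothelial-like against other mesenchymal-like cells (from 2 and 1), 4 for endothelial-like against epithelial-like (from 2), 3 for VSM-like (from 0) and 6 for the stage test of other mesenchymal-like cells (from 1). A joint fit of all classes gave 4, 5 and 1 for mesothelial-like, endothelial-like and VSM-like against other mesenchymal-like cells. In each of these comparisons, without the filter and in the joint fit, calls over all genes rose as well, by the counts listed further below. The share of all tested genes called is not given for these settings, so whether the rise is particular to the members cannot be told. Version 1 alone gave 2 for VSM-like and 2 for acinar-like against ductal-like (from 5), and version 2 alone gave 2 for the latter, 0 and 4 for endothelial-like against other mesenchymal-like and epithelial-like cells. Classes of at least 50 cells, a setting chosen after seeing the data, gave 1 for VSM-like cells. Marker UMIs alone gave 2 for endothelial-like against other mesenchymal-like cells. The stage test of other mesenchymal-like cells gave 2 with DESeq2, 0 with library totals, 3 with at least 500 genes per cell, 3 with marker UMIs, and 2 with E12.5 and E17.5 only. In acinar-like cells it gave 3 with library totals, 2 with doublets kept and 2 with E12.5 and E17.5 only. With each library left out, counts ran from 0 to 4 in mesothelial-like, 1 to 4 in other mesenchymal-like, 0 to 3 in acinar-like and 0 to 3 in ductal-like cells for stage, and from 0 to 1 for VSM-like cells.

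Without the replicate block, that is without pairing by library, members called were 2 for mesothelial-like against other mesenchymal-like cells and 5 for mesothelial-like against epithelial-like cells (from 6). The stage test without the chemistry term gave 0 in other mesenchymal-like and 1 in ductal-like cells (from 3). *Fgf9* of other mesenchymal-like against epithelial-like cells turned from -0.73 to 0.44 without the block, 0.27 with marker UMIs and 1.20 in version 2 alone. *Fgfr1* of mesothelial-like against other mesenchymal-like cells was called without the block (-1.065), and *Fgf1* of mesothelial-like cells lost its stage call without the chemistry term (3.73).

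Other members that turned sign were not called. *Fgf9* of endocrine-like against ductal-like cells (-0.01) was 0.0358 (DESeq2), 0.00253 (library totals), 0.0476 (no filter), 0.0467 (Scrublet), 0.00604 (500 genes), 0.059 (Leiden resolution 2), 0.0444 (joint fit) and 0.0597 (version 2), and -0.0697 to 0.11 with a library left out. Against other mesenchymal-like cells, mesothelial-like *Fgf1* (0.41) was -0.19 in version 2 and *Fgf10* (0.31) was -0.047 with marker UMIs. Stage change of *Fgfr1* in other mesenchymal-like cells (0.03) was -0.23 (library totals), -0.0653 (no filter) and -0.0384 (500 genes). For the difference between stage changes, *Fgf1* (-0.57) was 0.39, 0.48 and 0.35 and *Fgf9* (2.08) was -1.78, -1.10 and -1.72 with doublets kept, Scrublet and marker UMIs. *Fgfr2* (0.82) was -0.25 with doublets kept, and *Fgfr3* (1.096) was -1.08 and -0.92 with doublets kept and Scrublet. With a library left out, that difference ran from -2.04 to 2.98 for *Fgf1*, -4.56 to 0.85 for *Fgf7*, -1.38 to 4.24 for *Fgf9*, -0.54 to 1.62 for *Fgfr1*, -3.65 to 1.85 for *Fgfr2* and -6.04 to 7.10 for *Fgfr3*. Stage changes ran from -6.38 to 1.06 (*Fgf10*) and -0.18 to 1.17 (*Fgfr1*) in mesothelial-like, -1.81 to 7.38 (*Fgf1*), -1.89 to 4.07 (*Fgf18*) and -0.37 to 0.33 (*Fgfr1*) in other mesenchymal-like, -3.56 to 6.22 (*Fgf1*) and -1.46 to 1.24 (*Fgfr1*) in acinar-like, and -0.68 to 1.04 (*Fgfr1*) and -0.71 to 0.12 (*Fgfr4*) in ductal-like cells.

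Of 768 log2 folds of members under settings other than a left-out library, 701 kept direction and side of the threshold, 22 passed it newly, 20 lost it and 25 turned sign. With a library left out, 426 of 483 kept both. Counts over all genes moved by more than 1.5 times as follows. Without the filter, class counts of 1324, 3670, 2807, 1775, 2461, 283, 1539 and 3063 (in the order of the plot of log2 folds) became 2465, 5851, 5420, 3654, 4993, 728, 2360 and 4982. The joint fit gave 2162, 3402 and 617 for mesothelial-like, endothelial-like and VSM-like against other mesenchymal-like cells, version 2 alone 745 and 101 for the first and last of these, and VSM-like cells had 131 with marker UMIs, 99 without the block, 517 in version 1, 519 with at least 50 cells and 433 without version 2 E14.5. Acinar-like against ductal-like cells had 2315 with library totals and 660 in version 1, and endocrine-like 1890 in version 1 and 2037 without version 2 E17.5. For stage, 2166 in mesothelial-like cells became 1437 without the chemistry term, 766 without version 2 E12.5 and 428 without version 2 E17.5. In other mesenchymal-like cells 932 became 1775 (no filter), 1579 (marker UMIs), 254 (no chemistry term) and 293, 578 and 518 without version 1 E12.5, version 1 E17.5 or version 2 E12.5. In endothelial-like cells 225 became 127 (DESeq2), 371 (no filter), 123 (marker UMIs), 28 (no chemistry term), 510 (E12.5 and E17.5 only) and 47 and 73 without version 2 E12.5 or E17.5. In acinar-like cells 2146 became 3781 (library totals), 1060 (no chemistry term), 3237 without version 1 E14.5 batch 1, and 541 and 302 without version 2 E12.5 or E17.5. In ductal-like cells 702 became 1221 (no filter), 383 (no chemistry term), 1717 (E12.5 and E17.5 only), 1421 without version 1 E14.5 batch 1, and 134 and 313 without version 2 E12.5 or E17.5. The 15 genes of the difference between stage changes became 115 (DESeq2), 289 (no filter), 27 (500 genes), 0 (marker UMIs) and 4 to 43 with a library left out. With library totals the split of higher and lower calls went from 584 and 955 to 339 and 1976 in acinar-like against ductal-like cells, from 1150 and 996 to 615 and 3166 in the acinar-like stage test (median of all genes -0.75), from 733 and 199 to 469 and 307 in that of other mesenchymal-like cells (-0.30) and from 162 and 63 to 135 and 107 in that of endothelial-like cells (-0.13). Depth limits *Fgf7* and *Fgf10* most, with 229 and 460 UMIs in all.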
